A study of Caenorhabditis elegans with 15 samples.

Results

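The glutathione S-transferases described here are 43 protein-coding genes of Caenorhabditis elegans, taken from the expression table by name: gst followed by a number, apart from 1 such gene that was not analysed here. The table holds 46906 genes. Wild-type N2 worms of a single strain were sampled whole on day 12 of adulthood, and 15 libraries were made, 5 in each of 3 groups. The C. chinensis group received an extract of Cuscuta chinensis seeds at 30 µg/mL, and the E. ulmoides group received an extract of Eucommia ulmoides bark at 30 µg/mL. The DMSO group received the solvent at 0.05%, which both extract groups received as well. All groups were treated from the fourth larval stage (L4), kept at 22 °C on plates with 100 µM FUdR, an inhibitor of progeny production, and collected at about 3000 to 4000 worms per tube. Each extract is a mixture of plant compounds, and the question was how the transcriptome of aged worms differed after each treatment. The labels call the 5 replicates of each group biological replicates, and the p-values measure the spread between these libraries.

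Expression was given as FPKM, the fragments of a gene relative to its length and to the fragments of the library, so that levels can be set side by side between genes. Library totals were 37963794 to 81833288 fragments with C. chinensis, 39567765 to 87238546 with E. ulmoides and 37920765 to 82839505 with DMSO. For the comparisons, FPKM were divided by 1 factor per library, and this factor differed between the groups: 1.06 to 1.16 with C. chinensis, 0.873 to 0.914 with E. ulmoides and 0.942 to 1.03 with DMSO. Levels below are FPKM as deposited, while log2 fold changes come from the scaled values with 0.5 added, which understates the change of genes with low levels. The 13743 genes with at least 1 FPKM in at least 5 libraries were tested. A gene was called higher or lower at an adjusted p under 0.05 together with a fold of more than 1.5 in either direction, which is 0.58 or -0.58 on the log2 scale.

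Glutathione S-transferases join the tripeptide glutathione to reactive compounds, among them products of lipid peroxidation, plant chemicals and drugs, and the conjugates are then pumped out of the cell. Most of the numbered gst genes of C. elegans belong to the sigma class, which is expanded in nematodes, while gst-1 is of the pi class. In the worm, gst-4 is the best known member: it is a target of SKN-1, the worm counterpart of the mammalian factor Nrf2, and its promoter is a standard reporter of oxidative and xenobiotic stress. The enzyme made from gst-10 conjugates hydroxynonenal, an aldehyde formed from oxidised lipids. Family members are made in several tissues, the intestine among them, and a whole-worm level sums over all of them.

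The genes are spread unevenly over the genome. On WBcel235, the build to which the reads were aligned, 25 of the 43 lie on chromosome II, 9 on chromosome V, 4 on chromosome IV, 2 each on chromosomes I and X, and 1, gst-1, on chromosome III at 9059331 to 9060181 on the plus strand. Arrays of neighbours no more than 20 kb apart hold 25 members. The first spans chromosome II from 4879891 to 4893573 and holds gst-6, gst-7, gst-8 and gst-9, all on the plus strand. Another, from 13608154 to 13630887 on the same chromosome, holds 9 genes on the minus strand, in the order gst-20, gst-24, gst-15, gst-14, gst-12, gst-16, gst-19, gst-17 and gst-18. A further 9 minus-strand genes, from gst-26 to gst-35, lie between 15163817 and 15185389. The smallest array, chromosome IV from 10139380 to 10143099, holds gst-3, gst-2 and gst-4. In the annotation, exons of gst-4 overlap those of dhs-12 on the same strand, exons of gst-17 and gst-18 overlap each other, and 7 members, gst-2, gst-5, gst-22, gst-32, gst-36, gst-40 and gst-44, overlap exons of a gene on the other strand. The library kit does not mark strand, so fragments of such pairs cannot be told apart. How fragments shared by near-identical copies within an array were assigned is not given in the sources used here, so the levels of array members carry that uncertainty.

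All 43 members had fragments in at least 1 library, and their levels covered a wide range. The 5 most abundant were gst-1, gst-7, gst-24, gst-5 and gst-43. gst-1 averaged 160 ± 8.37 FPKM with C. chinensis, 184 ± 24.1 FPKM with E. ulmoides and 165 ± 8.86 FPKM with DMSO (SD, n = 5 each). At the other end, gst-18 had at most 0.108 FPKM in any library. Of the 43, 22 passed the filter and were tested. Of the 21 that did not, 10 exceeded 1 FPKM in some library and 11 never did. The plot of all members by library shows these levels in the order of their mean.

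**Figure D1:**
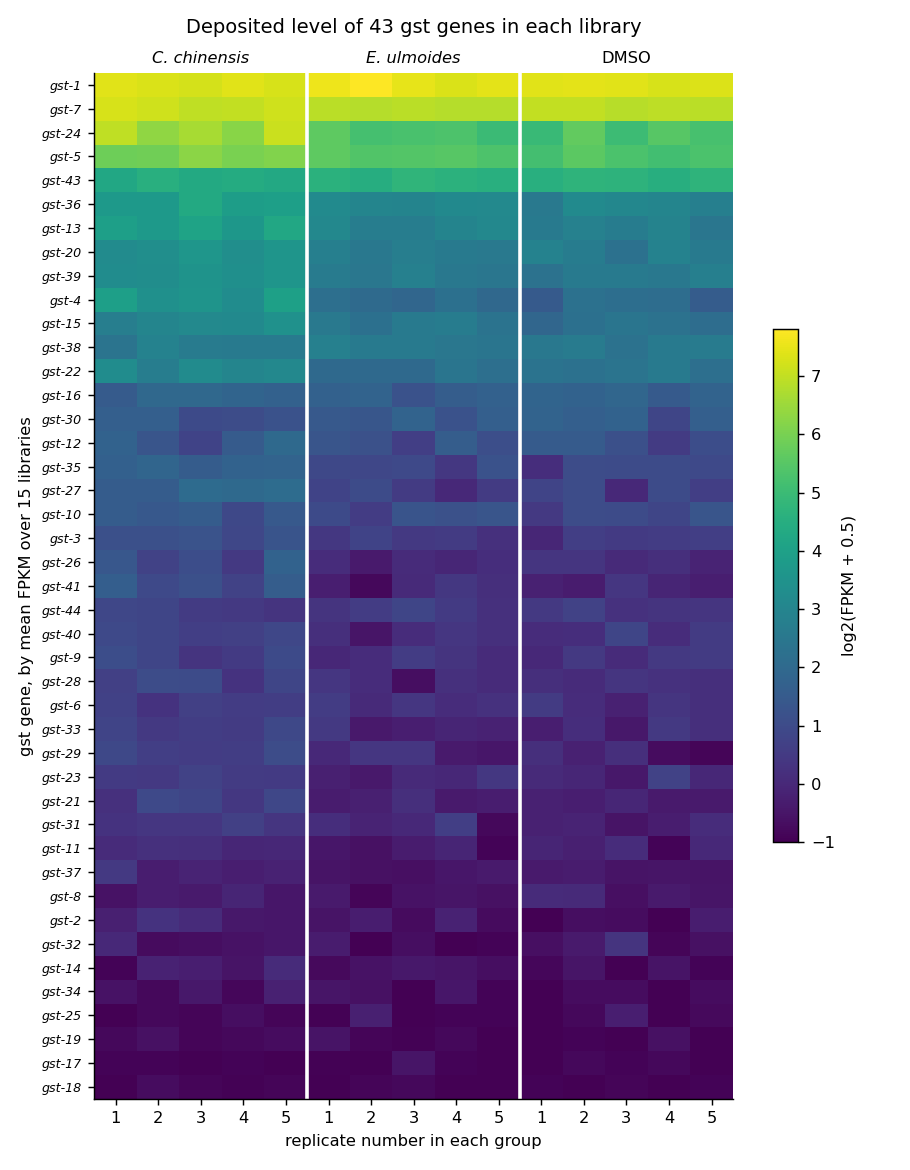
Level of each of the 43 gst genes (rows, from the highest to the lowest mean) in each of the 15 libraries (columns, by group and replicate number); colour is log2(FPKM + 0.5), with -1 standing for 0 FPKM. gst-1 and gst-7 head the list in every group, and the rows of gst-24, gst-13, gst-36 and gst-4 are brighter in every C. chinensis library than in any other.

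The summed FPKM of the 43 genes was 561 to 657 with C. chinensis (mean 606 ± 41.4), 444 to 498 with E. ulmoides (470.5 ± 24.98) and 440 to 494 with DMSO (453 ± 23.2; SD, n = 5 each). Every C. chinensis library was above every library of the other groups. On the scaled values the sums were 517 to 582, 492 to 554 and 432 to 482 in the same order of groups, so that the C. chinensis and E. ulmoides libraries then overlapped and both stood above DMSO. The 5 most abundant genes made up 78.8 to 81.5% of the sum with C. chinensis, 85.01 to 87.96% with E. ulmoides and 85.3 to 87.0% with DMSO. Of the difference between the mean sums of C. chinensis and DMSO, as deposited, gst-24 alone accounted for 41.6%, gst-5 for 17.1% and gst-7 for 10.4%. Next came gst-13 with 5.95%, gst-4 with 5.78% and gst-36 with 5.18%. The largest parts below 0 were those of gst-1 (-3.39%) and gst-43 (-2.74%). After scaling, gst-7 had a log2 fold change of only 0.02 (limma, adjusted p = 0.829).

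**Figure D2:**
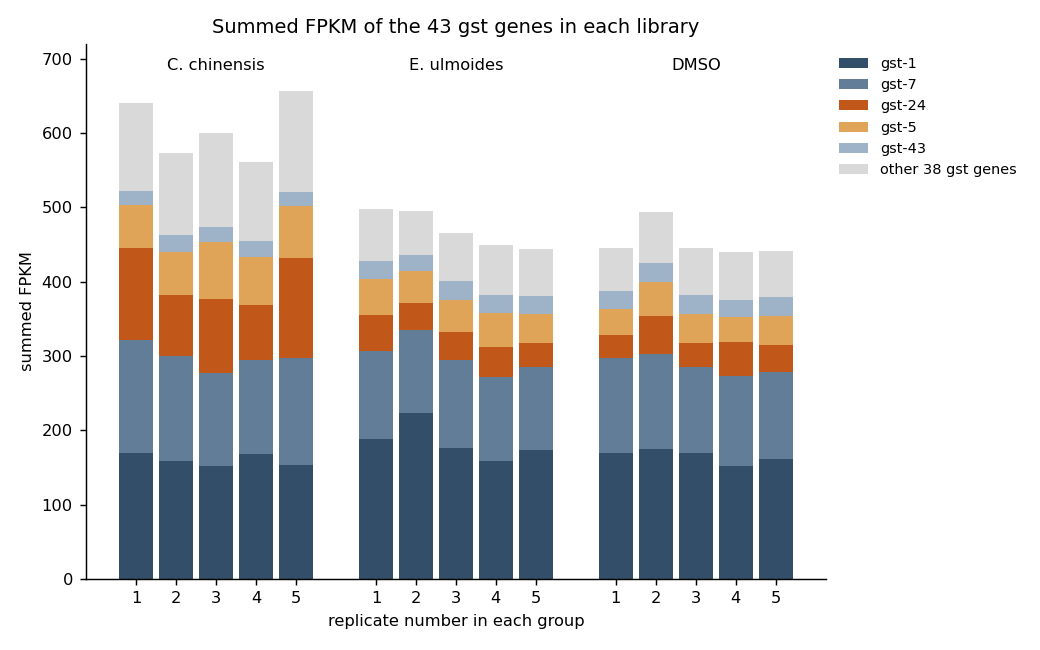
Summed FPKM of the 43 gst genes in each library, split into the 5 most abundant genes and the other 38 (bars start at 0; libraries by group and replicate number). The C. chinensis bars reach 561 to 657 FPKM, above the 444 to 498 FPKM of E. ulmoides and the 440 to 494 FPKM of DMSO, and the widest gain is in gst-24.

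In worms given C. chinensis, 10 gst genes were called higher than in DMSO worms and none was called lower. They were gst-4, gst-24, gst-41, gst-13, gst-27, gst-36, gst-35, gst-15, gst-39 and gst-20, with log2 fold changes of 1.57 for gst-4 down to 0.61 for gst-20. The 10 are 45.5% of the 22 members tested, against 16.9% of all genes tested that were called higher and 3.49% called lower. The median log2 fold change was 0.57 over the members tested and -0.09 over all genes tested. Of the 22, 3 (gst-3, gst-40 and gst-41) passed the filter only through the C. chinensis libraries, and among the other 19 members 9 were called higher. By adjusted p alone, 13 members were higher and 2 lower, against 30.2% and 37.2% of all genes tested. After scaling, 13 members lay above DMSO in every C. chinensis library and 1, gst-43, below in every library, against 23.1% and 27% of all genes tested. Both counts of 13 include gst-3 and gst-41, and the median over the members tested includes gst-40 as well. The number of members called higher was 7 to 13 over the other scalings, against 11.8 to 22.7% of all genes tested. Under quantile normalization 1 member, gst-30, was called lower with a log2 fold change of -0.61. Of the 10 members, 6 (gst-4, gst-13, gst-24, gst-27, gst-36 and gst-41) were called under every scaling. Over all genes the share of higher among called was 82.9%, against 65.2% with trimmed means over all genes above 0, 66.5% with quantile normalization and 96.2% without scaling.

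Of the tested members, gst-4, the SKN-1 target, had the largest log2 fold change with 0.5 added to the scaled values. In the voom fit with a minimum of 10 fragments, gst-29 (1.96) and gst-41 (1.93) had larger log2 fold changes than gst-4 (1.67). The value of gst-2 (2.20) was larger still, but gst-2 met that fragment filter only through the C. chinensis libraries. gst-4 had 15.1, 10.2, 11.2, 9.33 and 15.5 FPKM with C. chinensis, 4.15, 3.63, 3.24, 4.301 and 3.46 FPKM with E. ulmoides, and 2.31, 4.37, 3.99, 3.89 and 2.43 FPKM with DMSO. Its lowest C. chinensis library was above all others, and the E. ulmoides and DMSO libraries overlapped. For gst-4 limma gave a log2 fold change of 1.57 ± 0.16 (SE, adjusted p = 5.95e-07). On the deposited scale its mean was 12.3 ± 2.86 FPKM with C. chinensis and 3.396 ± 0.955 FPKM with DMSO (SD, n = 5 each).

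gst-24, the third most abundant member and the neighbour of gst-20 and gst-15 on chromosome II, changed most in absolute level. gst-24 had 124, 81.3, 99.9, 74.05 and 136 FPKM with C. chinensis, 48.4, 36.2, 37.8, 40.5 and 31.6 FPKM with E. ulmoides, and 30.7, 50.6, 32.2, 45.6 and 36.9 FPKM with DMSO. The C. chinensis libraries again stood apart from all others. With limma, gst-24 differed by 1.21 ± 0.16 on the log2 scale (SE, adjusted p = 6.59e-06). Its neighbour gst-15 had a lower level and a smaller fold. gst-15 had 6.35, 7.59, 8.41, 8.59 and 10.3 FPKM with C. chinensis, 5.33, 4.22, 5.55, 6.01 and 4.599 FPKM with E. ulmoides, and 3.21, 4.22, 4.87, 4.51 and 3.93 FPKM with DMSO. gst-15 had a limma log2 fold change of 0.76 ± 0.12 (SE, adjusted p = 5.44e-05). gst-20, the gene on the other side of gst-24, sat just past the fold limit. gst-20 had 8.99, 9.77, 11.7, 9.62 and 11.7 FPKM with C. chinensis, 6.41, 5.23, 6.28, 5.56 and 5.46 FPKM with E. ulmoides, and 6.99, 5.94, 4.36, 6.94 and 5.56 FPKM with DMSO. For gst-20 limma gave a log2 fold change of 0.61 ± 0.11 (SE, adjusted p = 1.89e-04). The C. chinensis and DMSO libraries did not overlap, yet this call was lost when C. chinensis replicate 3 or 5 or DMSO replicate 2, 3 or 5 was left out, with a log2 fold change of 0.50 at the lowest, without DMSO replicate 3.

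Of the other array of 9 genes, gst-27, gst-39 and gst-35 were tested, and all 3 were called higher. gst-27 had 2.43, 2.49, 3.69, 3.51 and 3.87 FPKM with C. chinensis, 1.205, 1.53, 0.953, 0.518 and 0.936 FPKM with E. ulmoides, and 1.26, 1.56, 0.512, 1.49 and 1.05 FPKM with DMSO. With limma, gst-27 differed by 1.03 ± 0.21 on the log2 scale (SE, adjusted p = 4.18e-04). The level of gst-39 was the highest of its array. gst-39 had 9.25, 9.41, 10.9, 9.96 and 11.4 FPKM with C. chinensis, 5.85, 5.11, 6.68, 5.3001 and 5.04 FPKM with E. ulmoides, and 4.53, 5.52, 5.71, 5.29 and 6.41 FPKM with DMSO. gst-39 had a limma log2 fold change of 0.69 ± 0.10 (SE, adjusted p = 1.71e-05). gst-35 was lower throughout. gst-35 had 2.78, 3.17, 2.46, 2.88 and 3.03 FPKM with C. chinensis, 1.38, 1.34, 1.41, 0.8402 and 1.83 FPKM with E. ulmoides, and 0.621, 1.56, 1.54, 1.503 and 1.44 FPKM with DMSO. In all 3 genes each C. chinensis library was above each DMSO library. For gst-35 limma gave a log2 fold change of 0.77 ± 0.18 (SE, adjusted p = 0.00106).

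Outside the arrays, gst-13, gst-36 and gst-41 were called higher. gst-13 had 15.3, 13.1, 16.7, 12.1 and 18.9 FPKM with C. chinensis, 8.05, 6.12, 6.14, 7.31 and 8.11 FPKM with E. ulmoides, and 5.51, 6.75, 6.02, 7.204 and 5.03 FPKM with DMSO. With limma, gst-13 differed by 1.09 ± 0.12 on the log2 scale (SE, adjusted p = 1.01e-06). gst-13 lies alone on chromosome II at 9231457 to 9232344, on the plus strand. gst-36 had 13.2, 12.64, 20.04, 14.6 and 15.2 FPKM with C. chinensis, 8.72, 7.55, 7.33, 8.57 and 8.37 FPKM with E. ulmoides, and 5.33, 8.83, 7.87, 7.45 and 6.51 FPKM with DMSO. gst-36 had a limma log2 fold change of 0.87 ± 0.12 (SE, adjusted p = 9.92e-06). gst-36 lies on the X chromosome at 9861646 to 9862960, on the minus strand. gst-41, on chromosome V at 7398396 to 7399302 (minus strand), was near the detection limit without C. chinensis. gst-41 had 2.57, 1.44, 1.704, 1.15 and 2.52 FPKM with C. chinensis, 0.341, 0.0654, 0.542, 0.839 and 0.637 FPKM with E. ulmoides, and 0.367, 0.297, 0.798, 0.443 and 0.336 FPKM with DMSO. For gst-41 limma gave a log2 fold change of 1.19 ± 0.23 (SE, adjusted p = 2.90e-04). Its fragments per library numbered 50 to 87 with C. chinensis, 2 to 32 with E. ulmoides and 13 to 26 with DMSO. Because it passed the filter only through the 5 C. chinensis libraries, it was not tested when any of these was left out.

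**Figure D3:**
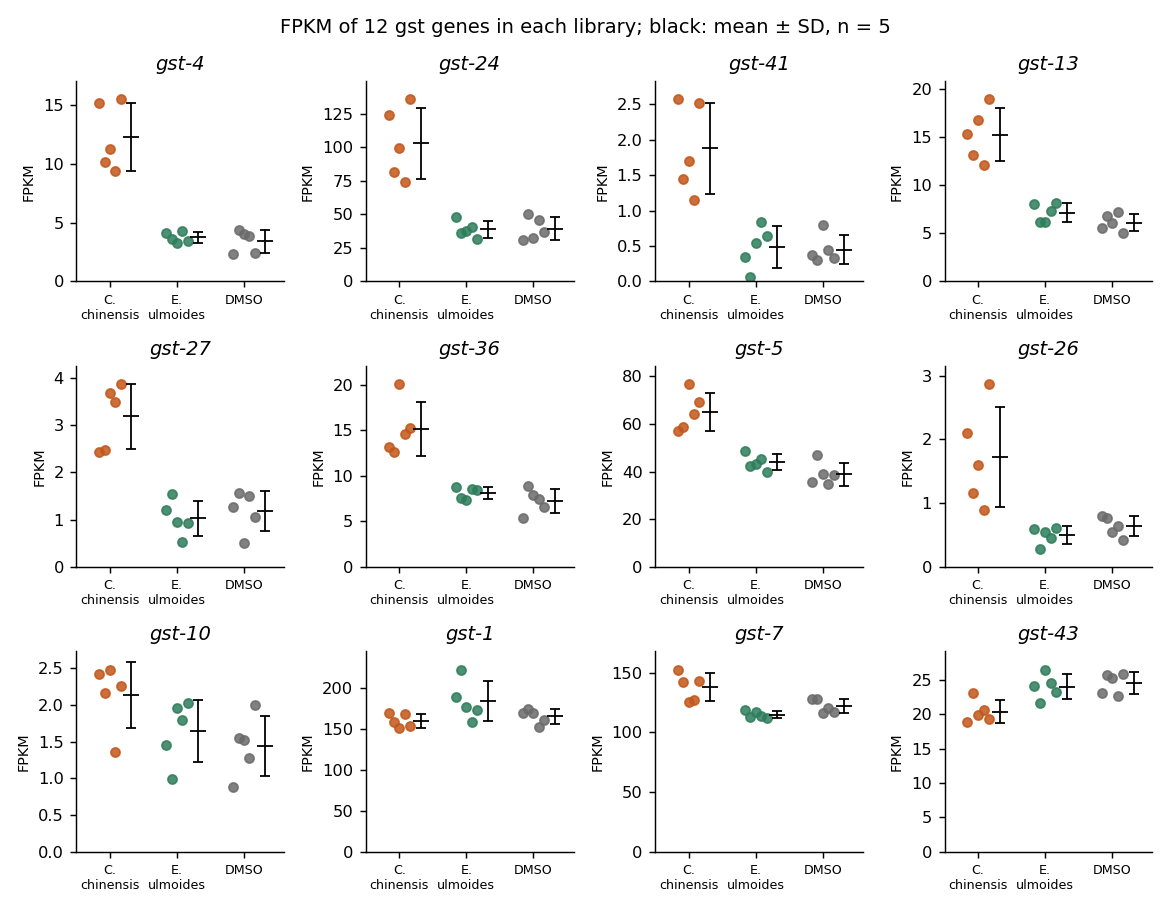
FPKM of 12 gst genes in each library (coloured points, 5 per group; C. chinensis, E. ulmoides and DMSO from left to right), with the group mean ± SD beside them in black; each vertical axis starts at 0. In gst-4, gst-24, gst-41, gst-13, gst-27, gst-36, gst-5 and gst-26 every C. chinensis point is above every DMSO point, while in gst-10, gst-1, gst-7 and gst-43 the points of these groups overlap.

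Of the 5 most abundant members, gst-24 was the only one called. gst-5, on chromosome II at 10950352 to 10951603 (plus strand), missed the fold limit narrowly. gst-5 had 56.9, 58.6, 76.6, 64.4 and 69.2 FPKM with C. chinensis, 48.7, 42.4, 43.005, 45.1 and 39.9 FPKM with E. ulmoides, and 35.7, 46.9, 38.8, 34.6 and 38.7 FPKM with DMSO. With limma, gst-5 differed by 0.58 ± 0.08 on the log2 scale (SE, adjusted p = 1.53e-05). The C. chinensis libraries were all above the DMSO libraries, and the fold passed the limit without scaling (0.74), with median of ratios (0.63) and with quantile normalization (0.77). gst-7, the member with the highest level after gst-1, did not pass the test. gst-7 had 153, 142, 125, 127 and 143 FPKM with C. chinensis, 118, 113, 117, 114 and 112 FPKM with E. ulmoides, and 128, 128, 116, 121 and 117 FPKM with DMSO. gst-7 had a limma log2 fold change of 0.02 ± 0.06 (SE, adjusted p = 0.829). Without scaling the value was 0.17 (adjusted p = 0.0108), and with trimmed means over all genes above 0 it was -0.07.

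gst-1, a pi-class enzyme, and gst-43 were the 2 members lower at an adjusted p under 0.05, both within the fold limits. gst-1 had 169, 158, 151, 168 and 153 FPKM with C. chinensis, 189, 223, 177, 158 and 174 FPKM with E. ulmoides, and 169, 174, 169.7, 152 and 161 FPKM with DMSO. For gst-1 limma gave a log2 fold change of -0.20 ± 0.08 (SE, adjusted p = 0.0292). As deposited, the C. chinensis and DMSO libraries of gst-1 overlapped, and without scaling the log2 fold change was -0.05 (adjusted p = 0.609). gst-43 had 18.8, 23.03, 19.96, 20.7 and 19.3 FPKM with C. chinensis, 24.1, 21.6, 26.5, 24.6 and 23.2 FPKM with E. ulmoides, and 23.1, 25.7, 25.3, 22.6 and 25.9 FPKM with DMSO. With limma, gst-43 differed by -0.42 ± 0.08 on the log2 scale (SE, adjusted p = 1.27e-04). The deposited levels of gst-43 overlapped as well, while after scaling all C. chinensis libraries lay below all DMSO libraries, and without scaling the change was -0.27 (adjusted p = 0.00299).

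gst-10, the hydroxynonenal-conjugating member on chromosome V at 2561690 to 2564645 (plus strand), did not pass the test. gst-10 had 2.42, 2.17, 2.49, 1.36 and 2.27 FPKM with C. chinensis, 1.46, 0.994, 1.96, 1.79 and 2.03 FPKM with E. ulmoides, and 0.886, 1.55, 1.52, 1.28 and 2.0000 FPKM with DMSO. The groups overlapped. gst-10 had a limma log2 fold change of 0.32 ± 0.18 (SE, adjusted p = 0.132). The genes gst-3 and gst-22 had log2 fold changes of 0.57 and 0.56 at adjusted p of 0.00317 and 2.98e-04, just under the fold limit. The remaining 5 tested members, gst-12, gst-16, gst-30, gst-38 and gst-40, had log2 fold changes between -0.35 and 0.33 and adjusted p of 0.115 to 0.686.

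**Figure D4:**
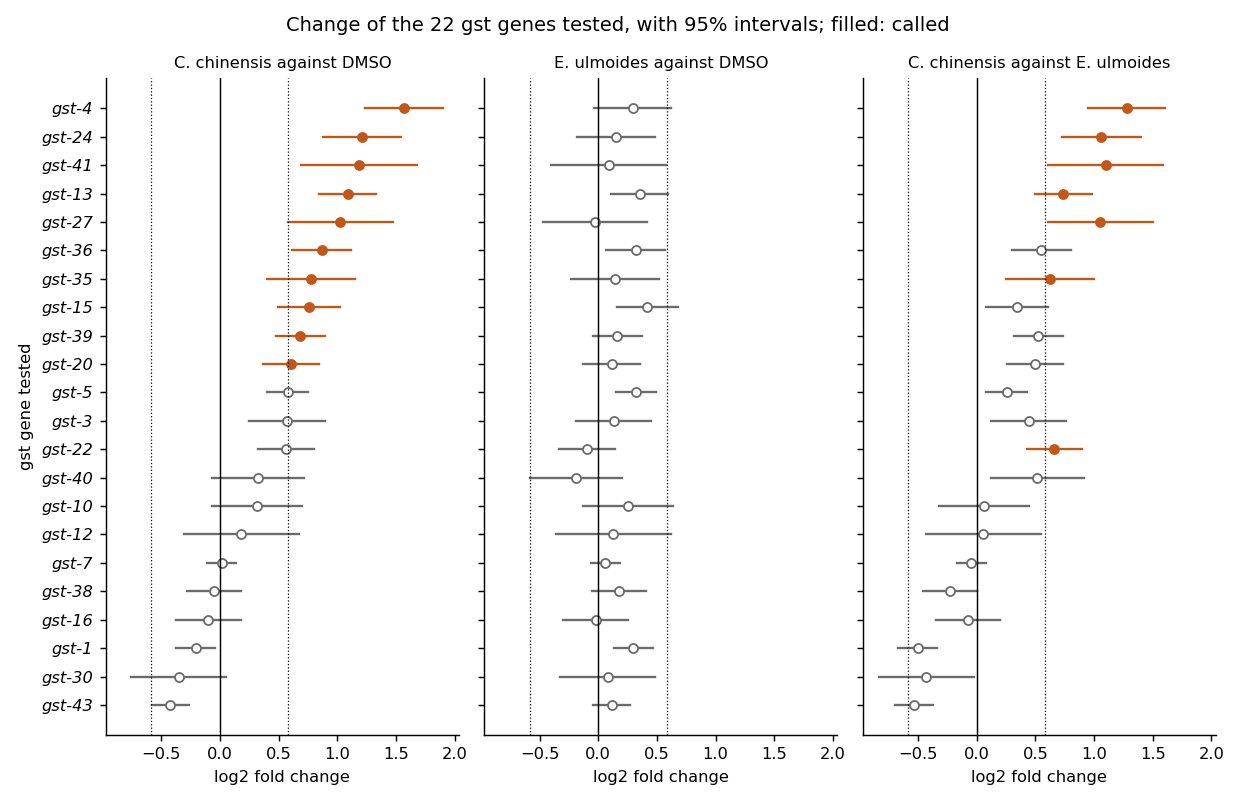
Log2 fold change (scaled FPKM, 0.5 added) of the 22 gst genes tested, with 95% intervals, for C. chinensis against DMSO, E. ulmoides against DMSO and C. chinensis against E. ulmoides; dotted lines mark the fold limits and filled points the genes called. The filled points number 10 in the first panel, 0 in the middle one and 7 in the last, and all lie to the right of 0.

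The members under the filter were mostly weakly expressed, and for 10 of them some library exceeded 1 FPKM. gst-26, the first gene of the array from gst-26 to gst-35, reached the highest of these levels. gst-26 had 2.099, 1.16, 1.604, 0.893 and 2.87 FPKM with C. chinensis, 0.589, 0.274, 0.549, 0.455 and 0.606 FPKM with E. ulmoides, and 0.797, 0.768, 0.546, 0.642 and 0.422 FPKM with DMSO. Each C. chinensis library was above each DMSO library, as deposited and after scaling. After scaling such a separation held for 23.1% of all genes tested, and the share among genes under the filter was not computed. gst-21 had 0.657, 1.43, 1.28, 0.832 and 1.34 FPKM with C. chinensis, 0.3001, 0.364, 0.634, 0.283 and 0.323 FPKM with E. ulmoides, and 0.371, 0.332, 0.466, 0.276 and 0.272 FPKM with DMSO. The C. chinensis libraries of gst-21 were also all above its DMSO libraries. Its fragments per library numbered 22 to 52 with C. chinensis, 9 to 37 with E. ulmoides and 8 to 21 with DMSO. gst-29 had 1.38, 1.05, 0.984, 1.001 and 1.57 FPKM with C. chinensis, 0.511, 0.799, 0.828, 0.276 and 0.225 FPKM with E. ulmoides, and 0.627, 0.382, 0.648, 0.114 and 0.0498 FPKM with DMSO. For gst-29 the C. chinensis libraries were also above all DMSO libraries, which had only 2 to 22 fragments each.

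gst-31 had 0.736, 0.824, 0.809, 1.09 and 0.786 FPKM with C. chinensis, 0.616, 0.427, 0.503, 1.03 and 0.0688 FPKM with E. ulmoides, and 0.368, 0.408, 0.182, 0.324 and 0.586 FPKM with DMSO. gst-31 did not overlap between C. chinensis and DMSO, although 1 E. ulmoides library reached the C. chinensis range. gst-33 had 1.26, 0.882, 1.02, 0.942 and 1.38 FPKM with C. chinensis, 0.869, 0.2599, 0.337, 0.432 and 0.403 FPKM with E. ulmoides, and 0.336, 0.605, 0.244, 0.881 and 0.646 FPKM with DMSO. As deposited, gst-33 stood just above DMSO in every C. chinensis library, while after scaling its C. chinensis and DMSO libraries overlapped. gst-23 had 0.926, 0.871, 1.18, 0.956 and 0.918 FPKM with C. chinensis, 0.349, 0.256, 0.531, 0.487 and 0.844 FPKM with E. ulmoides, and 0.537, 0.455, 0.241, 1.15 and 0.478 FPKM with DMSO. gst-28 had 1.08, 1.55, 1.53, 0.729 and 1.28 FPKM with C. chinensis, 0.811, 0.596, 0.127, 0.666 and 0.559 FPKM with E. ulmoides, and 0.635, 0.553, 0.7897, 0.695 and 0.649 FPKM with DMSO. gst-23 and gst-28 overlapped between C. chinensis and DMSO.

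gst-6 had 1.123, 0.723, 1.09, 0.966 and 1.009 FPKM with C. chinensis, 0.97998, 0.524, 0.814, 0.591 and 0.696 FPKM with E. ulmoides, and 0.932, 0.594, 0.369, 0.786 and 0.629 FPKM with DMSO. gst-9 had 1.61, 1.27, 0.764, 0.895 and 1.48 FPKM with C. chinensis, 0.491, 0.593, 0.977, 0.763 and 0.557 FPKM with E. ulmoides, and 0.512, 0.867, 0.557, 0.874 and 0.934 FPKM with DMSO. gst-44 had 1.34, 1.28, 0.929, 0.875 and 0.754 FPKM with C. chinensis, 0.759, 0.972, 1.29, 0.924 and 0.6701 FPKM with E. ulmoides, and 0.862, 1.17, 0.684, 0.761 and 0.778 FPKM with DMSO. These 3 members also overlapped between C. chinensis and DMSO. The other 11 members, gst-2, gst-8, gst-11, gst-14, gst-17, gst-18, gst-19, gst-25, gst-32, gst-34 and gst-37, stayed at or below 0.869 FPKM in every library.

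The low members could be followed further in fragments, which were recovered from the steps of the FPKM values. With voom on these fragments and a filter of at least 10 fragments in at least 5 libraries, an alternative added after the data had been seen, 37 members could be tested and 19 were called higher with C. chinensis than with DMSO. In that fit 19.1% of 16847 genes were called higher. Of the 15 members it added, 7 were called: gst-2, gst-21, gst-23, gst-26, gst-29, gst-31 and gst-33, with log2 fold changes of 0.82 for gst-23 to 2.20 for gst-2. Of these, gst-2 met the fragment filter only through the C. chinensis libraries, and its DMSO libraries had 0 to 12 fragments. None was called lower in that fit. Where all genes above 0 were tested with limma instead, 3 of the 21 added members, gst-21, gst-26 and gst-29, were called higher. In that fit 7.91% of 26686 genes were called higher.

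Neighbours within an array differed widely in level. In the DMSO libraries gst-7 averaged 122 FPKM and gst-8, the next gene along the chromosome, averaged 0.340 FPKM. In the array of 9 genes that starts with gst-20, the mean DMSO level was 39.2 FPKM for gst-24 and 0.0212 FPKM for gst-18. Of its 5 tested genes, gst-20, gst-24 and gst-15 were called higher with C. chinensis, and gst-12 and gst-16 were not, with log2 fold changes of 0.18 and -0.10. These 3 called genes are adjacent at the start of the array. In the array from gst-26 to gst-35, where only gst-27, gst-39 and gst-35 were tested, all 3 were called. Of the array on chromosome IV, gst-4 was called and gst-3 was not. Outside the arrays, 3 of 11 tested members were called higher, and in the array of gst-6 to gst-9 the only gene tested, gst-7, was not. Over all genes tested 16.9% were called higher, and the counts per array are small. Among the genes counted here, gst-3 in the chromosome IV array and gst-40 and gst-41 outside the arrays passed the filter only through the C. chinensis libraries.

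**Figure D5:**
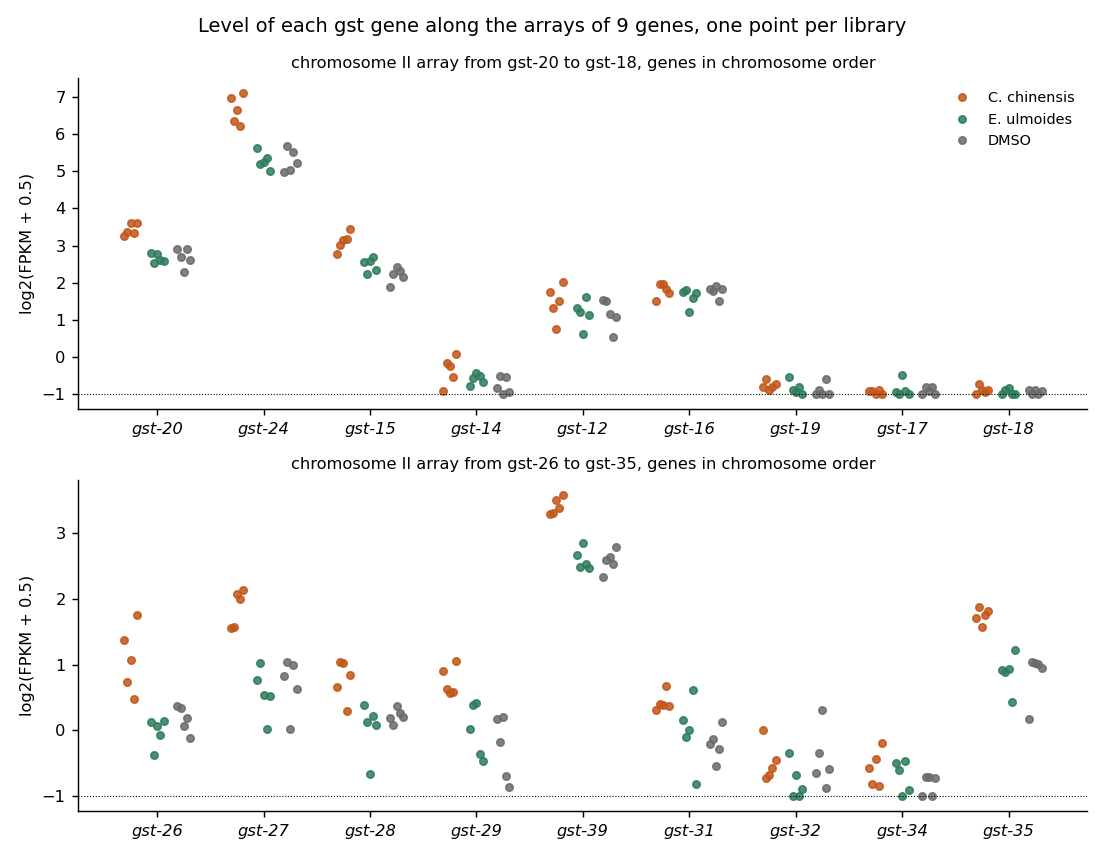
Level of each gene, as log2(FPKM + 0.5), along the arrays of 9 gst genes on chromosome II, in chromosome order (1 point per library; C. chinensis, E. ulmoides and DMSO from left to right at each gene; the dotted line marks 0 FPKM). In the upper panel gst-20, gst-24 and gst-15 separate C. chinensis from DMSO while gst-12 and gst-16 overlap, and in the lower panel gst-27, gst-39 and gst-35 separate the groups.

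In worms given E. ulmoides, no gst gene was called higher or lower than in DMSO worms, against 1.11% and 0.109% of all genes tested. At an unadjusted p under 0.05, 5 members were higher and 0 lower in limma, against 19.9% and 3.38% of all genes tested, and voom on the fragments called none in either direction. The largest log2 fold change was 0.42 for gst-15 (95% interval 0.16 to 0.68, adjusted p = 0.0590). By adjusted p alone, 2 members were higher and 0 lower, against 4.68% and 0.335% of all genes tested. In limma the log2 fold change was 0.32 ± 0.08 for gst-5 (SE, adjusted p = 0.0364) and 0.30 ± 0.08 for gst-1 (SE, adjusted p = 0.0408). Without scaling the value was 0.17 for gst-5 (adjusted p = 0.276) and 0.15 for gst-1 (adjusted p = 0.258). For gst-4 the comparison with DMSO gave a log2 fold change of 0.29 with a 95% interval of -0.04 to 0.62 with E. ulmoides. For 16 of the 22 members the 95% interval stayed inside the fold limits, and for gst-4, gst-10, gst-12, gst-13, gst-15 and gst-40 it reached past one of them. The median log2 fold change was 0.14 over the members tested and 0.07 over all genes tested. The comparisons of both extracts with DMSO share the 5 DMSO libraries, so their fold changes are not independent.

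Set directly against E. ulmoides, C. chinensis gave 7 gst genes called higher and none lower, against 13.2% and 9.56% of all genes tested. They were gst-4, gst-41, gst-24, gst-27, gst-13, gst-22 and gst-35. Of the 19 members that passed the filter without needing the C. chinensis libraries, 6 were called higher. By adjusted p alone 14 were higher and 2 lower, against 29.4% and 37.8% of all genes tested. The median log2 fold change was 0.47 over the members tested and -0.05 over all genes tested. For gst-4 limma gave a log2 fold change of 1.28 ± 0.16 (SE, adjusted p = 2.55e-06). With limma, gst-24 differed by 1.06 ± 0.16 on the log2 scale (SE, adjusted p = 1.60e-05). For gst-4, gst-24, gst-13, gst-27, gst-41, gst-22 and gst-35 each scaled C. chinensis value was above each E. ulmoides value. This held for 11 of the 22 members in all, against 20.8% of all genes tested. The 11, like the 14 above, include gst-40 and gst-41, which passed the filter only through the C. chinensis libraries. The 14 and the median of 0.47 also include gst-3. In 2 members, gst-1 and gst-43, each scaled C. chinensis value was below each E. ulmoides value, against 28.9%. gst-22 had a limma log2 fold change of 0.66 ± 0.11 (SE, adjusted p = 5.58e-05). In this comparison gst-35 (log2 fold change 0.63) was no longer called without E. ulmoides replicate 4, where it was 0.55. The scale factors of these groups lay furthest apart. Without scaling 13 members were called higher, against 27.8% of all genes tested. The median over all genes tested was then 0.22, against -0.05 with scaling. The genes lower by adjusted p alone were gst-1, with a log2 fold change of -0.50, and gst-43, with -0.54. Without scaling these were -0.19 and -0.23. This comparison uses the same 5 C. chinensis libraries as the comparison with DMSO.

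The genes around the transferases in the glutathione pathway were taken from lists of known function. Of 13 genes of glutathione synthesis and recycling tested, 2 were called higher and none lower with C. chinensis against DMSO, a share close to the 16.9% of all genes tested that were called higher. The median log2 fold change was -0.10, against -0.09 over all genes tested. Both called genes act in the transsulfuration route that makes cysteine: cth-1, a cystathionine gamma-lyase, had 3.86 to 7.58 FPKM with C. chinensis and 0.771 to 1.89 FPKM with DMSO, a log2 fold change of 1.52. cbs-1, a cystathionine beta-synthase, had 13.9 to 20.7 FPKM with C. chinensis and 8.202 to 9.62 FPKM with DMSO, a log2 fold change of 0.77. gcs-1, which makes the rate-limiting enzyme of glutathione synthesis and is itself a SKN-1 target, had 65.5 to 73.1 FPKM with C. chinensis and 70.4 to 76.9 FPKM with DMSO, a log2 fold change of -0.23 within the fold limits (adjusted p = 0.00401). Without scaling the median of this list was 0.05.

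Of the genes that use glutathione otherwise, 2 of 6 tested glutathione peroxidases were called higher, with a median of 0.25. These counts are small, and over all genes tested 16.9% were called higher and 3.49% lower, with a median of -0.09. gpx-5 had 8.78 to 14.7 FPKM with C. chinensis and 3.04 to 4.21 FPKM with DMSO, a log2 fold change of 1.37, and gpx-3 had 4.35 to 9.39 FPKM with C. chinensis and 2.198 to 5.24 FPKM with DMSO, a log2 fold change of 0.75. Of 3 tested gamma-glutamyltransferases, which start the breakdown of glutathione and its conjugates, T03D8.6 and H14N18.4 were called higher at log2 fold changes of 1.13 and 0.82. Among 10 tested genes of other glutathione transferase classes or folds, 5 were called higher and none lower, with a median of 0.59. The kappa-class gene gstk-1 had 27.7 to 39.8 FPKM with C. chinensis and 12.8 to 15.7 FPKM with DMSO, a log2 fold change of 0.99. The genes cdr-6, cdr-4 and cdr-2, of the cdr family (cadmium responsive by name), had log2 fold changes of 0.73, 1.006 and 0.92. The other gene called was cdr-1. cdr-2 was also called higher with E. ulmoides than with DMSO (log2 fold change 0.69, adjusted p = 0.0238), a call absent under the other scalings.

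The exporters and regulators follow, with the same 16.9% and 3.49% over all genes tested. Of 8 MRP transporters, the ABC pumps that carry glutathione conjugates out of cells, mrp-1 alone was called higher. mrp-1 had 11.9 to 16.7 FPKM with C. chinensis and 5.502 to 8.45 FPKM with DMSO, a log2 fold change of 0.86, and the median of the 8 was 0.36. By adjusted p alone 5 of the 8 were higher and 2 lower, against 30.2% and 37.2% of all genes tested. Without scaling 4 were called higher, against 22.7% of all genes tested. Of 11 genes for SKN-1 and its regulators, none was called higher and 1 lower, with a median of -0.02 that was 0.14 without scaling. skn-1 itself had 89.97 to 110.1 FPKM with C. chinensis and 107 to 116 FPKM with DMSO, a log2 fold change of -0.31 (adjusted p = 0.00215). The gene called lower was ddb-1, a part of the ubiquitin ligase that works with WDR-23, the repressor of SKN-1. It had 86.5 to 112 FPKM with C. chinensis and 124 to 159 FPKM with DMSO, a log2 fold change of -0.65 that was not called without scaling or under quantile normalization. Of 5 tested SKN-1 dependent genes outside the family, nit-1, a nitrilase, was called higher with 3.19 to 7.05 FPKM with C. chinensis and 1.36 to 2.88 FPKM with DMSO, a log2 fold change of 1.19. The median of these 5 was 0.25, and -0.02 under quantile normalization. With E. ulmoides against DMSO none of the genes on these lists was called other than cdr-2.

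The libraries also differed in tissue markers. A whole-worm level does not separate the share of a tissue in the RNA from the level of a gene within it. The counts below stand beside 16.9% of all genes tested called higher with C. chinensis than with DMSO and 3.49% called lower. The 8 markers of body wall muscle summed to 268 to 394 FPKM with C. chinensis, 157 to 188 FPKM with E. ulmoides and 152 to 190 FPKM with DMSO. Of them 6 were called higher with C. chinensis than with DMSO, among them unc-54, a myosin heavy chain, with a log2 fold change of 1.58, unc-27, a troponin I, with 1.56, and unc-15, paramyosin, with 1.05. The 7 intestinal markers summed to 150.3 to 207 FPKM with C. chinensis, 78.7 to 97.3 FPKM with E. ulmoides and 94.98 to 135 FPKM with DMSO, and 2, ges-1 and vha-6, were called higher. The sums over 9 neuronal markers were 489 to 574, 349 to 397 and 367 to 390.2 FPKM in the same order of groups, with none of the 8 tested called and a median of 0.42. Of 3 tested hypodermal markers, elt-3 and the adult collagen gene col-19 were called higher. The third, lin-26, was lower by adjusted p alone (log2 fold change -0.46, adjusted p = 1.80e-04), while wrt-2, bli-1, rol-6 and dpy-7 were near 0 throughout.

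Markers of the germ line ran the other way. The 8 germline markers summed to 1265 to 1543 FPKM with C. chinensis, 1524 to 1784 FPKM with E. ulmoides and 1728 to 1789 FPKM with DMSO. With C. chinensis against DMSO 1 of them, htp-3, was called lower and the median was -0.44. Of 8 oocyte markers 1, cbd-1, was called lower, with a median of -0.38, and none of 4 sperm markers was called. The oocyte markers summed to 1086 to 1688 FPKM with C. chinensis, 1214 to 1468 FPKM with E. ulmoides and 1482 to 1605 FPKM with DMSO. The sperm markers summed to 38.8 to 47.0, 42.2 to 52.0 and 39.5 to 55.1 FPKM in the same order. In both lists the deposited sums of C. chinensis and DMSO overlapped. Neither htp-3 nor cbd-1 was called without scaling. With E. ulmoides against DMSO no marker on any of these lists was called. The part of these tissue differences in the levels of the gst genes was not tested.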

How the data were processed

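RNA of whole worms was sequenced in 15 libraries with a kit that does not mark strand. The authors aligned the paired reads with HISAT2 to WBcel235 and deposited one table of FPKM per gene and library, which has 46906 genes. The HISAT2 version, the counting tool and the annotation release are not given in the sources used here. The study's own test, edgeR, was not repeated as the main test because the deposited values are FPKM and not counts. No column of any sample was left unused (0 columns).

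FPKM were divided by a factor per library from trimmed M values without weights (30% of M and 5% of A values trimmed), computed over the 13743 genes with at least 1 FPKM in at least 5 libraries, and log2(value + 0.5) was fitted in limma 3.58.1 (R 4.3.3) with 1 term per group over all 15 libraries, with a trend in the prior variance. The p-values were adjusted by Benjamini and Hochberg over all genes tested, and every adjusted p in the text is from limma unless voom is named. Genes were called at an adjusted p under 0.05 with a fold over 1.5 in either direction. Whole fragments were recovered from the FPKM of 26686 of the 26686 genes above 0, to within 0.0001 of a whole number, with the scale set by genes of 21 bases. They served the voom alternatives and the depths. Fragments are not independent molecules and carry counting error only.

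The members were the genes named gst and a number, apart from 1 gene that is not reported here. The members, the pathway lists and the tissue lists were chosen with earlier results of these data known. Values in every library were given for gst-1, gst-4 and gst-10, the 5 members of highest mean, up to 12 called members with the largest change, members called lower or called with E. ulmoides, and members under the filter that exceeded 1 FPKM in a library. Of the other lists, up to 4 called genes with the smallest p were named. Positions and exon overlaps came from Ensembl release 115 (WBcel235), matched by gene ID. Alternatives covered the scaling, the pseudocount, the filter, the libraries in the fit, a block for the replicate number, voom, and leaving out each library. The voom fit with a minimum of 10 fragments and the trimmed mean over all genes above 0 were chosen after seeing the data. Replicate numbers are not stated to pair the samples. Over 15 pairs with the same title number the correlation of deviations from the group mean was -0.25 to 0.06. Over 11 pairs with the same code number it was -0.15 to 0.04. With 5 libraries per group, these correlations cannot settle whether libraries shared a batch. The script was tested on simulated data. Tables were handled with Python 3.11.15, pandas 2.3.3 and numpy 2.4.6, and figures were drawn with matplotlib 3.10.9.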

Additional observations from a re-analysis of the deposited data

Results flagged for a closer look

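For the 25 members whose values were given in every library, the lowest or highest library was compared with its nearest neighbour in each group of 5, which made 75 groups. In 6 of them 1 library stood far from the other 4, and chance alone sets apart about 1 in 20 groups. For gst-10, C. chinensis replicate 4 had 1.36 FPKM and its nearest library 2.17 FPKM. For gst-35, DMSO replicate 1 had 0.621 FPKM and its nearest library 1.44 FPKM. The other 4 were in members under the filter: gst-21 had 0.634 FPKM in E. ulmoides replicate 3 (nearest 0.364), gst-23 had 1.18 FPKM in C. chinensis replicate 3 (nearest 0.956), gst-31 had 1.09 FPKM in C. chinensis replicate 4 (nearest 0.824), and gst-33 had 0.869 FPKM in E. ulmoides replicate 1 (nearest 0.432). The call of gst-35 with C. chinensis against DMSO was kept in every fit without 1 library.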

How the results depend on the processing

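For C. chinensis against DMSO the main result was 10 of 22 members higher and 0 lower, against 16.9% and 3.49% of all genes tested. Voom with a minimum of 10 fragments called 19 of 37 higher, against 19.1% of all genes in that fit. Adjusted p alone called 2 lower, against 37.2%, and quantile normalization called 1 lower. For E. ulmoides against DMSO the main result was 0 and 0, and adjusted p alone called 2 higher, against 4.68%. For C. chinensis against E. ulmoides the main result was 7 higher and 0 lower. No scaling called 13 higher, against 27.8% of all genes tested, and voom with a minimum of 10 fragments called 15 of 37, against 16.5%. Adjusted p alone called 14 higher and 2 lower, against 29.4% and 37.8%, while quantile normalization called 1 lower. Leaving out each library in turn gave 8 to 12 members higher for C. chinensis against DMSO, 7 to 9 for C. chinensis against E. ulmoides, 0 to 0 for E. ulmoides against DMSO, and 0 to 0 lower in each comparison. Of the 10 members called with C. chinensis, 8 were called in every fit without 1 library, the exceptions being gst-20 and gst-41. gst-15, gst-35 and gst-39 were not called under quantile normalization, with log2 fold changes of 0.51, 0.50 and 0.45. The calls of all genes depend more on the scaling: for C. chinensis against DMSO 480 genes were lower, against 125 without scaling, 1035 with trimmed means over all genes above 0 and 813 with quantile normalization. For E. ulmoides against DMSO 153 genes were higher, against 20 without scaling and 34 with quantile normalization. A replicate block on the title number changed no member's call, with 10, 0 and 7 higher in the order of comparisons above; a block on the code number gave 10, 0 and 9. Over all genes, the genes higher with E. ulmoides than with DMSO then numbered 73 with the title block and 1 with the code block, against 153 without a block. The numbers are not stated to pair the samples. The 21 members under the filter were not tested in the main fit and summed to 11.3 to 16.04 FPKM with C. chinensis, 5.76 to 7.96 FPKM with E. ulmoides and 7.01 to 8.23 FPKM with DMSO. The cause of these shifts was not tested.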
